A study of Mus musculus with 4 samples.

Results

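A set of 21 genes was transcribed in sorted B cells from the cervical lymph nodes of NOD.B10 mice. It was silent or nearly silent in sorted B cells from the same nodes of BL/10 mice. Members were chosen from a table of 23418 gene symbols by their read counts alone. Each had a level of at least 2 CPM in both NOD.B10 libraries and at most 0.5 CPM in both BL/10 libraries, where CPM is a gene's read count over the library's total, times 1000000. In all, 23 symbols passed both limits, which is 0.135% of the 17058 symbols with any read, and 2 of them, Nlrp1a and Rprl3, were left out by the rule, which also names Ifi204 and Tlr12, neither of which passed. Since the same values chose the members, their levels in the 2 strains are a description, and no test of them is given.

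The series concerns IL-36 cytokines in Sjögren's disease, an autoimmune disease of the salivary and lacrimal glands, and sequenced RNA of B cells sorted from the nodes that drain those glands. NOD.B10 is the disease-prone strain, with the autoimmune NOD background and, as is known of this strain, the major histocompatibility region of C57BL/10. BL/10 is its control strain. Each strain had 2 libraries, and the labels give no age, sex, treatment or number of animals, so the spread between libraries may be technical. The markers of the labelled cell type were high in every library. Together Cd79a, Cd79b, Ms4a1, Pax5 and Cd22 stood at 6169 and 6425 CPM in the NOD.B10 libraries. In the BL/10 libraries they stood at 6224 and 5985 CPM. Of these 5 B cell genes 0 were called different, against 15.2% of all 13075 genes tested. Their sums cannot show a minority of other cells, whose markers differed between strains. The 9 T cell markers summed to 9.21 and 4.81 CPM in NOD.B10 and 304 and 358 CPM in BL/10. Erythroid markers summed to 9.73 and 4.30 CPM in NOD.B10 and 186 and 289 CPM in BL/10. A gene was called at an adjusted p under 0.05 in edgeR's quasi-likelihood test over all tested genes, and a positive log2 fold change means higher in NOD.B10.

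Inbred mouse strains are known to differ in which genes a given cell type transcribes, and NOD and C57BL/10 descend from different founders. KRAB zinc finger genes, which encode DNA-binding repressors of transposable elements, lie in clusters of near-identical copies that vary between mouse strains. Read counts of genes in such clusters depend on how reads that match several copies were assigned.

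The members were spread over 10 chromosomes, with 4 on chromosome 4 and 3 each on chromosomes 2 and 9. By the RefSeq annotation of GRCm38.p6, 16 were protein-coding genes, 3 long noncoding RNAs, 1 an RNase P RNA gene and 1 a transcribed pseudogene. Of the 21, 12 carried a gene name in the deposited table and 9 a clone or gene model name. Among the 9, RefSeq gives 4931429I11Rik as Jhy, 2610305D13Rik as Zfp979, Gm13154 as Zfp985 and A630020A06 as Gm2093. Together the members made up 487 and 536 CPM in the NOD.B10 libraries, against 3.57 and 3.94 CPM in the BL/10 libraries.

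**Figure D1:**
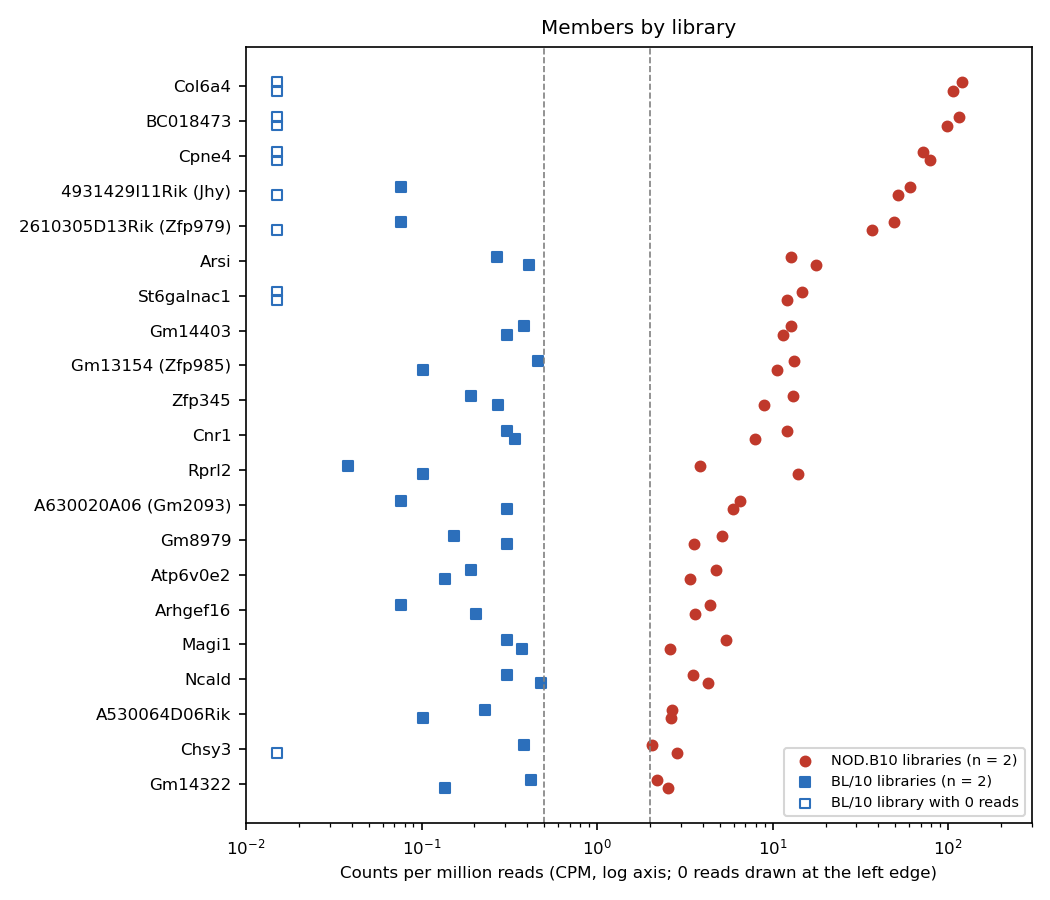
Level of each of the 21 members in each library, in CPM on a log axis, with members ordered by their mean in NOD.B10 and dashed lines at the limits of 0.5 and 2 CPM; circles are the 2 NOD.B10 libraries, squares the 2 BL/10 libraries, and open squares mark 0 reads. The NOD.B10 libraries of the top 5 genes lie between 36.8 and 120 CPM, while all other members lie under 20 CPM.

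Col6a4 (chromosome 9, 105990318 to 106096828) was the most abundant member by CPM. It encodes a chain of collagen VI, a collagen of the extracellular matrix that forms beaded filaments. It had 2062 and 3045 reads in the NOD.B10 libraries, or 107 and 120 CPM, and 0 reads in both BL/10 libraries. Its mean in NOD.B10 was 113 ± 9.42 CPM (SD, n = 2). That is 2098-fold the level that 3 reads over both BL/10 libraries would give, 0.054 CPM. With 1 BL/10 library instead of 2 this ratio was 988-fold or 1110-fold. The 95% interval of the ratio of pooled CPM, for counting error only, had a lower limit of 1719-fold. Such intervals, here and below, allow neither for the choice of members by these same counts nor for spread between libraries. Scaled to gene length, Col6a4 stood at 14.3 and 16.1 RPKM, which is CPM per 1000 bases of gene length, in NOD.B10, at percentile 68.7 of the 15374 genes with reads in that strain.

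The other chains of collagen VI had few or no reads. Col6a1 had 0 reads in every library. Col6a2 had 0 and 8 reads in NOD.B10 and 0 in both BL/10 libraries, Col6a3 had 4 and 0 reads in NOD.B10 and 0 in both BL/10 libraries, and Col6a5 had 0 and 1 read in NOD.B10 and 2 in each BL/10 library. Col6a6, which lies 162 kb from Col6a4, had 19 and 7 reads in NOD.B10 and 1 and 13 reads in BL/10. It was the only other chain with enough reads to test, the libraries of the strains overlapped, and its adjusted p was 0.532 in the edgeR test, with a log2 fold change of 1.22 (SE 1.07). Col1a1 and Col1a2, genes of the stroma, where collagen VI is usually made, were near 0 as well. Col1a1 had 2 reads in each NOD.B10 library and 2 and 3 in BL/10, and Col1a2 had 0 reads in both NOD.B10 libraries and 4 and 6 in BL/10. Of the same list of markers, Cdh5 had more, 35 and 38 reads in NOD.B10 and 43 and 81 in BL/10. Cxcl13 had 9 and 16 reads in NOD.B10 and 0 and 18 in BL/10. Of 4 tested genes among 12 stromal and endothelial markers, 1 was called higher in NOD.B10, Pdgfrb. It had 29 and 18 reads in NOD.B10 and 0 and 2 reads in BL/10. Pdgfra, of the same list, had 0 reads in both NOD.B10 libraries and 8 and 2 in BL/10. Pdgfrb lies 126 kb from the member Arsi on chromosome 18, and whether its level belongs to stromal cells was not tested. With BL/10 replicate 1 left out its adjusted p in edgeR was 0.0976, and with NOD.B10 replicate 1 left out it was 0.0621. The summed level of the 12 markers was 417 and 431 CPM in NOD.B10 and 372 and 355 CPM in BL/10, nearly all of it Pecam1, which lymphocytes also express. The part of stromal cells in the level of Col6a4 was not tested.

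Cpne4 (chromosome 9, 104566701 to 105034544) encodes a copine, a protein that binds membrane phospholipids when calcium is present. It had 1526 and 1829 reads in NOD.B10, or 78.9 and 72.1 CPM, and 0 reads in both BL/10 libraries. The mean in NOD.B10 was 75.5 ± 4.86 CPM (SD, n = 2). That is 1398-fold the same level of 3 reads, or 658-fold and 739-fold with 1 BL/10 library. The lower limit of its 95% counting interval was 1129-fold. Among the 9 copines Cpne4 was one of the 3 highest per length in NOD.B10 B cells: it stood at 21.6 and 19.7 RPKM there, beside 34.5 and 35.4 RPKM for Cpne1 and 19.01 and 19.65 RPKM for Cpne3. In BL/10 Cpne1 was at 45.5 and 35.1 RPKM and Cpne3 at 18.6 and 17.3 RPKM. All 5 other copines tested (Cpne1, Cpne2, Cpne3, Cpne5 and Cpne9) were not called, with a median log2 fold change of 0.10 against −0.00321 for all 13075 tested genes. With BL/10 replicate 2 left out, Cpne1 was called lower (edgeR adjusted p = 0.0261). Cpne5 was at 2.23 and 2.11 RPKM in NOD.B10 and 1.70 and 2.30 RPKM in BL/10, while Cpne6 had 0 reads everywhere, Cpne7 0 reads in both NOD.B10 libraries and 8 and 3 in BL/10, and Cpne8 0 and 1 read in each strain.

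The promoter sequences of Col6a4, Cpne4 and 4931429I11Rik (Jhy) are shown because these are the most abundant members with a RefSeq promoter. Each is 300 bases at the outermost start among the gene's entries, 250 before and 50 after it, on GRCm38.p6, and capitals mark each CG, the dinucleotide at which mammalian DNA is methylated. The assembly is that of C57BL/6J, so the letters are of neither strain studied.
Col6a4, chr9:106096642-106096941, minus strand: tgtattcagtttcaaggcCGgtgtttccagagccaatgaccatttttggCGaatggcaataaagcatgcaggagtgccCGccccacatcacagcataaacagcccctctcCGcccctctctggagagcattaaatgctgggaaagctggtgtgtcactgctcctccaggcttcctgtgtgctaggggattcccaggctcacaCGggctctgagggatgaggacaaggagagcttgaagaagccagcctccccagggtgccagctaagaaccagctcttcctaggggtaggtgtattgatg
Cpne4, chr9:104569405-104569704, plus strand: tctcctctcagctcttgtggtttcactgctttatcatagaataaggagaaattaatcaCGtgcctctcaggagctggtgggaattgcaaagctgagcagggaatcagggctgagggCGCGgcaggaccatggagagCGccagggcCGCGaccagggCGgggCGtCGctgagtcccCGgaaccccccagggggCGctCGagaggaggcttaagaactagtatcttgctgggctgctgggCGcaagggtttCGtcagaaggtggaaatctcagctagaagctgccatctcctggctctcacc
4931429I11Rik (Jhy), chr9:40964504-40964803, minus strand: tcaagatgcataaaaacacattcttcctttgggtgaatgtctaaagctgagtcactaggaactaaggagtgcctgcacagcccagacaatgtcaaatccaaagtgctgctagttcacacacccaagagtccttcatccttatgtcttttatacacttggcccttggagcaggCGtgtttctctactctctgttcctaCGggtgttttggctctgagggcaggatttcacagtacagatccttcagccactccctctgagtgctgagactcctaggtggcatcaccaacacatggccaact
The Col6a4 promoter held 5 CG, that of Cpne4 14 and that of 4931429I11Rik 2. Cpne4 had a second entry with 1 CG, and 4931429I11Rik had 3 entries with 2, 28 and 2 CG. RefSeq promoters were found for 14 of the 21 members, as 20 entries, with a median of 5.5 CG per entry and a range of 1 to 40. The 12961 promoter entries of all tested genes had a median of 20 CG. Observed over expected CG had a median of 0.34 over the members' entries, against 0.742 over those of tested genes. Short motifs were searched on both strands, of which GGGCGG and CCGGAAGT each contain a CG. GGGCGG, the box bound by Sp1, was found in 10 of the 20 entries against 35.7% of all 32851 promoters. TATAAA was found in 2 entries, both of 4931429I11Rik, against 13.6%. The octamer ATGCAAAT was found in 1, of Zfp345, against 1.74%, and the ETS motif CCGGAAGT in 0 against 3.89%. Unlike the CG medians, these shares are of all promoters and not of tested genes alone. These matches describe letters in this window and say nothing of binding.

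BC018473 (chromosome 11, 116752167 to 116757883), a long noncoding RNA, and St6galnac1 (chromosome 11, 116765025 to 116775507) are neighbours 7.14 kb apart, and both had 0 reads in BL/10. St6galnac1 encodes a sialyltransferase that adds sialic acid to the first sugar of mucin-type O-glycans. BC018473 had 1909 and 2924 reads in NOD.B10, or 98.8 and 115 CPM. Its mean there was 1980-fold the BL/10 level of 0.054 CPM used for Col6a4. The lower limit of its 95% counting interval was 1627-fold. Per length BC018473 was the highest of the protein-coding and long noncoding members, at 30.3 and 35.3 RPKM. St6galnac1 had 232 and 375 reads, with a mean of 13.4 ± 1.96 CPM (SD, n = 2), or 248-fold the same BL/10 level. The lower limit of its 95% counting interval was 204-fold. With 1 BL/10 library the ratios of the means to that level were 933-fold and 1048-fold for BC018473 and 117-fold and 131-fold for St6galnac1.

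A related gene close by was also called higher in NOD.B10. St6galnac2, a sialyltransferase of the same family that lies 56.4 kb from BC018473, was at 20.6 and 18.4 CPM in NOD.B10 and 2.49 and 2.94 CPM in BL/10. Its libraries did not overlap between strains, and it was called higher (log2 fold change 2.84, SE 0.238, adjusted p = 2.81e-06). On the far side of the pair, Jmjd6 had an adjusted p of 0.144 in edgeR and was not called, at a log2 fold change of −0.36 (SE 0.151).

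4931429I11Rik, now Jhy (chromosome 9, 40894851 to 40966266), is known in mice as a gene of ciliated ependymal cells whose loss causes hydrocephalus. It had 52.0 and 60.5 CPM in NOD.B10, and 0 and 2 reads in BL/10. The ratio of pooled CPM was 1579 with a 95% interval of 437 to 13042, which covers counting error only. No 31-base word of its transcripts occurred in another gene. Its nearest tested neighbours were Crtam, whose log2 fold change of −0.21 (SE 0.576) was not called in edgeR (adjusted p = 0.872), and Hspa8, a heat shock chaperone, which was at 252 and 267 CPM in NOD.B10 and 498 and 642 CPM in BL/10 and was called lower (log2 fold change −1.14, SE 0.129, adjusted p = 8.97e-05). Hspa8 has 56.5% of its 31-base words to itself.

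A second group was made up of zinc finger genes and of gene models with near-identical copies. 2610305D13Rik, now Zfp979 (chromosome 4, 147611936 to 147642508), has the RefSeq synonym Ssm1b, the name of a strain-specific modifier of DNA methylation that was mapped in mice by its effect on a transgene. It had 36.8 and 49.4 CPM in NOD.B10, and 0 and 2 reads in BL/10, a pooled ratio of 1221 with a counting interval of 338 to 10088. Gm13154, now Zfp985 (chromosome 4, 147553277 to 147585201), lies 26.7 kb from it and had 10.6 and 13.2 CPM in NOD.B10 and 0.102 and 0.459 CPM in BL/10. Zfp345 (chromosome 2, 150470991 to 150485063) had 8.95 and 13.1 CPM in NOD.B10 and 0.272 and 0.191 CPM in BL/10. A pair of gene models lay further along chromosome 2, 247 kb from each other. Gm14403 (177498226 to 177512311) had 11.5 and 12.7 CPM in NOD.B10 and 0.306 and 0.382 CPM in BL/10, and Gm14322 (177759149 to 177773399) had 2.54 and 2.21 CPM in NOD.B10 and 0.136 and 0.421 CPM in BL/10. All 5 of these genes were clear of the BL/10 libraries in both NOD.B10 libraries, as the rule requires, and Gm14322 was the least abundant member of all.

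The promoters of both neighbouring pairs are shown because the genes of each pair have near-identical ones.
2610305D13Rik (Zfp979), chr4:147642459-147642758, minus strand: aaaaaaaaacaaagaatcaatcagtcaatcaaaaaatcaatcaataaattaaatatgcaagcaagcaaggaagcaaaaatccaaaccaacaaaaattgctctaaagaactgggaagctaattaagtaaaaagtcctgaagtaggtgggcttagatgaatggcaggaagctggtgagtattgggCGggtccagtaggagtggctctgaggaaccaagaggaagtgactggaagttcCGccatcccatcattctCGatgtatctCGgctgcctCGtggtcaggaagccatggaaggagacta
Gm13154 (Zfp985), chr4:147553027-147553326, plus strand: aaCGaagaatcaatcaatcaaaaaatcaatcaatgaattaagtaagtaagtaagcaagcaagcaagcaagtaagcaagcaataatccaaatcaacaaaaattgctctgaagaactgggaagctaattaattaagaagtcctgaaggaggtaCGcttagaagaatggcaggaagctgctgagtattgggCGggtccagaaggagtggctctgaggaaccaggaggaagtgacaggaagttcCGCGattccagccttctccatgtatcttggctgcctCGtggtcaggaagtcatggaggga
Gm14403, chr2:177497976-177498275, plus strand: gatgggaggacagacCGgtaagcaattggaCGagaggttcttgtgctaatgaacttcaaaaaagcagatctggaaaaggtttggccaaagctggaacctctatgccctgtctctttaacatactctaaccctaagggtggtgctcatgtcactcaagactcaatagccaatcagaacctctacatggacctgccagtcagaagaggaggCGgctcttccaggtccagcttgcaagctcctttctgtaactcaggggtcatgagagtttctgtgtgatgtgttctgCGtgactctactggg
Gm14322, chr2:177759038-177759337, plus strand: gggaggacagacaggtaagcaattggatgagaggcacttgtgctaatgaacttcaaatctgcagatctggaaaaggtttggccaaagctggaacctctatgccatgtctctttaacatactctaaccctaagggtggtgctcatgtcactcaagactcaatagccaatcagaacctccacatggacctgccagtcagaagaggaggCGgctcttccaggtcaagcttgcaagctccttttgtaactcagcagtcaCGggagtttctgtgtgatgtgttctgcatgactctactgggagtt
The promoters of 2610305D13Rik and Gm13154 were identical at 257 of 284 aligned bases, gaps not counted, or 90.5%, although the genes lie on opposite strands. Those of Gm14403 and Gm14322 were identical at 281 of 296 aligned bases, or 94.9%. The promoter of Zfp345, on another part of chromosome 2, matched them at 76.4% and 77.7%. In the other 24 pairs of the 8 promoters aligned, identity was 52.8% to 65.0%.

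Because copies share sequence, the share of each member's transcript that is its own was measured in GENCODE vM21, as the percentage of its 31-base words that occur in no other gene's transcripts. For Col6a4, Cpne4, BC018473, 4931429I11Rik, Arsi, Cnr1, Arhgef16, Magi1 and Chsy3 it was 99.0% or more, and for A630020A06, Ncald, Atp6v0e2, Rprl2 and A530064D06Rik 83.0% to 98.5%. It was 68.6% for 2610305D13Rik, 60.6% for Gm13154, 56.8% for St6galnac1, 49.2% for Zfp345, 43.0% for Gm14403, 9.02% for Gm14322 and 8.26% for the pseudogene Gm8979. Thus 7 of the 21 members had under 80% of their own sequence, against 7.88% of the 12943 tested genes that matched GENCODE. For Gm14322, 90.3% of words were shared with Gm14418, and for Gm8979, 82.3% with Gm8989. For St6galnac1, 42.1% were shared with the gene model Gm11735. The measure ignores position, and whether Gm11735 overlaps St6galnac1 was not checked. How reads with several alignments were counted is not given in the sources used here, so the counts of these 7 genes are uncertain, and the part of shared sequence in their levels was not tested. BC018473, next to St6galnac1, had 99.0% of its words to itself.

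**Figure D2:**
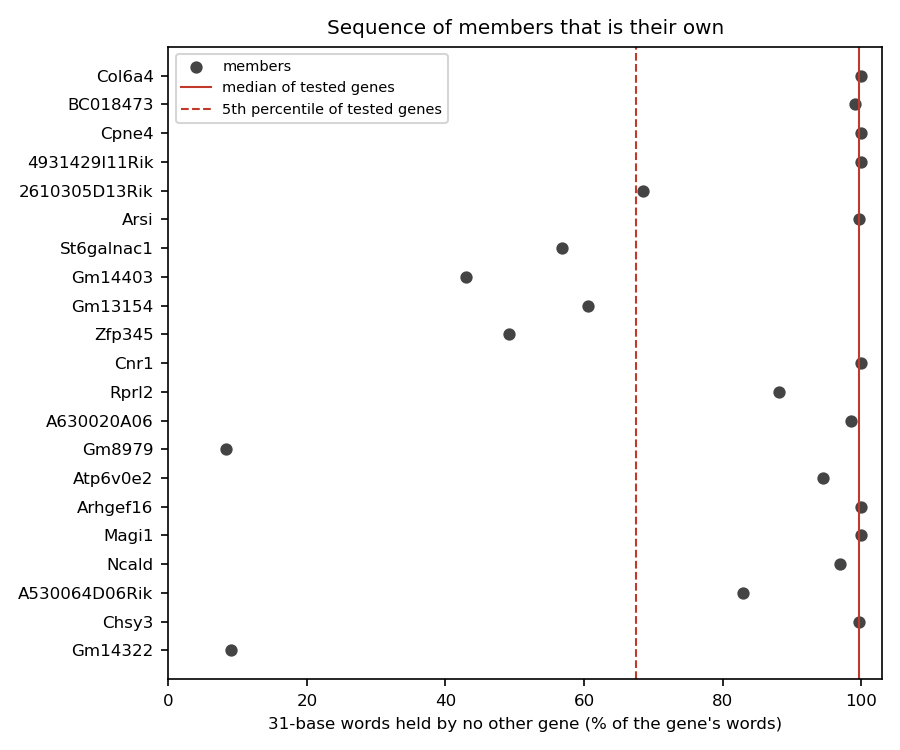
Percentage of each member's 31-base transcript words that no other gene's GENCODE transcripts hold, with members in the order of their NOD.B10 level. The solid line is the median of tested genes, 99.6%, the dashed line their 5th percentile, 67.6%, and Gm8979, Gm14322, Gm14403, Zfp345, St6galnac1, Gm13154 and 2610305D13Rik lie between 8.26% and 68.6%, left of the other 14 members at 83.0% or more.

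The remaining named members encode enzymes, receptors and scaffold proteins, at lower levels. Arsi, a sulfatase gene on chromosome 18, had 17.7 and 12.7 CPM in NOD.B10 and 0.409 and 0.268 CPM in BL/10, a pooled ratio of 43.5 with a counting interval of 27.6 to 72.7. Cnr1 (chromosome 4, 33923171 to 33948831) encodes the cannabinoid receptor CB1, best known from the nervous system. It had 7.97 and 12.1 CPM in NOD.B10 and 0.34 and 0.306 CPM in BL/10, a pooled ratio of 31.9 (interval 19.9 to 54.3). The receptor of B cells for the same ligands, CB2, is encoded by Cnr2. Per length Cnr2 stood far above Cnr1 in NOD.B10, at 117 and 120 RPKM against 1.37 and 2.09 RPKM for Cnr1. Between strains Cnr2 was at 450 and 461 CPM in NOD.B10 and 361 and 354 CPM in BL/10 and was called higher (log2 fold change 0.34, SE 0.097, adjusted p = 0.0289), a call that leaving out NOD.B10 replicate 1 or 2 ended (edgeR adjusted p of 0.163 and 0.167).

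Arhgef16, a guanine nucleotide exchange factor, had 3.62 and 4.37 CPM in NOD.B10 and 0.204 and 0.0765 CPM in BL/10. Atp6v0e2, a subunit of the proton pump of lysosomes, had 3.36 and 4.77 CPM in NOD.B10 and 0.136 and 0.191 CPM in BL/10. Magi1, a scaffold protein of cell junctions, had 2.59 and 5.40 CPM in NOD.B10 and 0.374 and 0.306 CPM in BL/10. In NOD.B10 these 3 genes had 50 to 137 reads per library. Ncald, a calcium sensor of neurons, had 4.29 and 3.51 CPM in NOD.B10 and 0.477 and 0.306 CPM in BL/10, the highest read count in BL/10 of any member, 22. Its span contains Gm15941, at 8 and 12 reads in NOD.B10 and 0 in both BL/10 libraries. Chsy3, an enzyme of chondroitin sulphate synthesis, had 2.85 and 2.05 CPM in NOD.B10 and 0 and 0.382 CPM in BL/10, with all 10 BL/10 reads in the second library. A630020A06, a long noncoding RNA, had 5.95 and 6.54 CPM in NOD.B10 and 0.306 and 0.0765 CPM in BL/10. Gm8979 had 3.57 and 5.12 CPM in NOD.B10 and 0.306 and 0.153 CPM in BL/10. A530064D06Rik had 2.64 and 2.68 CPM in NOD.B10 and 0.102 and 0.229 CPM in BL/10. These 3 models were low in NOD.B10 and had 9 to 13 reads in all in BL/10.

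Rprl2 differed from the other members in how its NOD.B10 libraries compared. This short gene, of 238 bases, is annotated as an RNase P RNA gene, and RNase P is the enzyme that trims the 5′ end of transfer RNAs. It had 269 and 98 reads in NOD.B10, or 13.9 and 3.86 CPM, a ratio of 3.6 between libraries of the same strain, and 3 and 1 reads in BL/10. Rpph1, the main RNase P RNA gene, was at 1451 and 490 CPM in NOD.B10 and 2761 and 2409 CPM in BL/10, and Rprl3, left out by the rule, was at 122 and 39.7 CPM in NOD.B10 with 0 and 1 reads in BL/10. In all 3 of these genes the first NOD.B10 library was the higher of that strain. Rpph1 had a log2 fold change of −1.42 (SE 0.752), which edgeR did not call (adjusted p = 0.433). Of Rprl2's 31-base words, 10.8% were shared with Rprl3, and the part of shared sequence in its level was not tested.

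Between the NOD.B10 libraries 18 of the 21 members differed by less than 1.5-fold, and 15 were higher in the second library. The exceptions were Cnr1, 1.52-fold higher in the second library, Magi1, 2.09-fold higher in the second, and Rprl2. In BL/10, 4 members had 0 reads in both libraries, 2 had 2 reads in all, and 15 had 4 to 22 reads. In bulk RNA, fewer cells of a type and less RNA per cell cannot be told apart, which touches the low BL/10 levels of these 15 members. Per length, the members ranged from percentile 23.2 (Magi1) to 88.0 (Rprl2) of the genes with reads in NOD.B10, with a median at percentile 40.3.

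**Figure D3:**
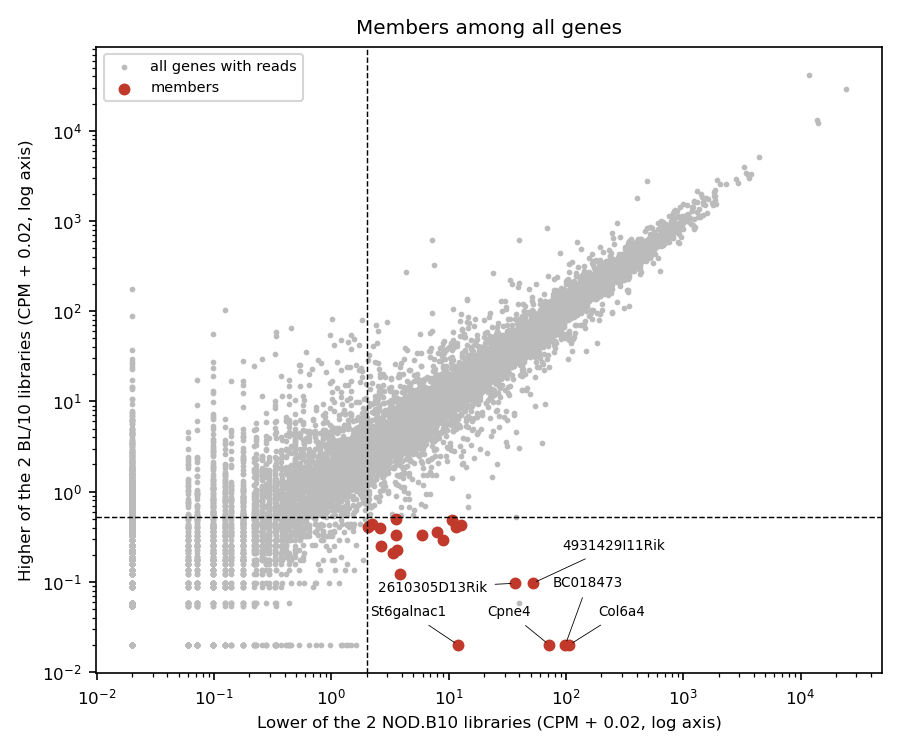
Each point is a gene, placed by the lower of its 2 NOD.B10 libraries (horizontal) and the higher of its 2 BL/10 libraries (vertical), both as CPM plus 0.02 on log axes, with dashed lines at the limits. Members fill the lower right box; the 4 with 0 reads in BL/10 lie along its floor, with Col6a4, BC018473 and Cpne4 far to the right of the other genes with 0 BL/10 reads, and grey points inside the box are the symbols the rule leaves out by name.

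The limits cut through a continuum at the low end. Just inside were Chsy3, whose lower NOD.B10 library had 2.05 CPM, and Gm14322, at 2.21 CPM. Just outside, Stag3 had 1.97 CPM and Napb 1.93 CPM in the lower NOD.B10 library, with at most 0.459 and 0.477 CPM in BL/10. Lrrc63, at 24.8 and 14.7 CPM in NOD.B10, failed only on its BL/10 level of 0.306 and 0.65 CPM, as did Tusc1, at 6.88 and 8.79 CPM in NOD.B10 and 0.919 and 0.497 CPM in BL/10. In all 33 genes failed only because a BL/10 library lay between 0.5 and 1 CPM, and 39 because a NOD.B10 library lay between 1 and 2 CPM. The opposite rule, at least 2 CPM in both BL/10 and at most 0.5 CPM in both NOD.B10 libraries, held for 100 genes. All 21 members passed the filter on low counts and were called higher, against 6.55% of the 13075 genes tested, but the rule used the same contrast, so nothing follows from that count.

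Position was not used to choose the members. In all, 4 pairs lay within 1 Mb of each other: BC018473 with St6galnac1, Gm14403 with Gm14322, Gm13154 with 2610305D13Rik, and Cpne4 with Col6a4, the last 956 kb apart. These 8 genes are 38.1% of the members. Of the 100 genes of the opposite pattern, 23 lay in such runs. Without the 7 members of shared sequence, only the pair of Cpne4 and Col6a4 was left.

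The 173 other tested genes within 500 kb of a member were then read from the test over all genes. Of these, 24 were called higher, or 13.9% against 6.55% of all genes tested, and 22 lower, or 12.7% against 8.63%. Together 26.6% were called, against 15.2%, and their median log2 fold change was −0.00610. Calls near the members thus went in both directions. Within 250 kb the share was 31.2% of 93 genes and within 1 Mb 21.0% of 281. Leaving out neighbours with under 80% of their own sequence, 36 of 150 were called, a setting chosen after seeing the data. The calls so left out included Zfp442, Zfp534, Gm14124 and Gm15645 among those higher, and Rpl29 and Hspa8 among those lower. The share called higher thus rests in part on genes whose counts are uncertain. Neighbours of 1 member are not independent of each other, and no test of the share was made.

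Around Col6a4 and Cpne4 most genes were not called. Glyctk, 56.0 kb from Col6a4, and Mrpl3, 18.7 kb from Cpne4, each had a log2 fold change of 0.04, with SE 0.166 and 0.137 and an edgeR adjusted p of 0.911 for both. Acpp, 229 kb from Cpne4 and the gene of an acid phosphatase, was at 11.02 and 10.84 CPM in NOD.B10 and 4.36 and 4.86 CPM in BL/10 and was called higher (log2 fold change 1.24, SE 0.249, adjusted p = 0.00429). Rpl29, a ribosomal protein gene 332 kb from Col6a4, was at 1.86 and 1.46 CPM in NOD.B10 and 31.4 and 54.2 CPM in BL/10 and was called lower (log2 fold change −4.71, SE 0.329, adjusted p = 2.19e-05). Only 55.5% of its 31-base words are its own, so its count is uncertain as well.

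Among the neighbours with the most extreme calls, AI854703, near Atp6v0e2, had 4 reads in each NOD.B10 library and 72 and 44 reads in BL/10 (log2 fold change −3.49, SE 0.683, adjusted p = 0.0033). Gm15645, near Gm8979, had 8 and 12 reads in NOD.B10 and 0 in both BL/10 libraries (adjusted p = 0.0236), a call that ended without BL/10 replicate 1 (0.172) or 2 (0.139) and in DESeq2 (0.0508).

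Around Zfp345 the genes called were higher in NOD.B10. Zfp442, 19.5 kb away and also a zinc finger gene, was at 14.1 and 15.5 CPM in NOD.B10 and 1.77 and 1.84 CPM in BL/10 (log2 fold change 3.03, SE 0.264, adjusted p = 4.01e-06). Gm14124, 201 kb away, was at 1.55 and 3.07 CPM in NOD.B10 and 0.102 and 0.115 CPM in BL/10 (log2 fold change 4.36, SE 0.747, adjusted p = 0.00122). Of 15 tested neighbours of Zfp345, 5 were called higher and 0 lower. Cst7, 85.4 kb away, was at 0.621 and 0.433 CPM in NOD.B10 and 1.12 and 3.17 CPM in BL/10 and just missed the call (log2 fold change −2.04, SE 0.653, adjusted p = 0.0511). It was called lower without BL/10 replicate 1 (0.0172), without NOD.B10 replicate 1 (0.0105), with no filter on low counts (0.00907), with a stricter filter (0.0438) and with scaling by column totals alone (0.0419). Zfp345 shared 32.0% of its 31-base words with Gm14124, and Zfp442 had 54.1% of its words to itself. On chromosome 4, Zfp534, 31.7 kb from 2610305D13Rik, was at 1.55 and 1.73 CPM in NOD.B10 and 0.238 and 0.421 CPM in BL/10 (log2 fold change 2.30, SE 0.661, adjusted p = 0.0302). The call ended when BL/10 replicate 1 was left out (adjusted p = 0.227), BL/10 replicate 2 (0.0713) or NOD.B10 replicate 2 (0.0851), and in DESeq2 (0.0501), and 17.0% of its words are its own. Among the other nearest neighbours of the 10 highest members, Tcof1, Camk2a, Gm14420, Gm14325 and Gm13152 were not called, with edgeR adjusted p between 0.119 and 0.584, and Tcof1 was called higher without BL/10 replicate 2 (0.0389).

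The neighbours of A530064D06Rik split in direction. This gene lies on chromosome 17 (48151896 to 48167257) beside the Trem cluster of receptor genes. 9830107B12Rik, 5.59 kb away, shared 7.62% of the words of A530064D06Rik and was at 1.86 and 1.85 CPM in NOD.B10 and 0 and 0.153 CPM in BL/10 (log2 fold change 4.57, SE 0.945, adjusted p = 0.00457). On the other side, Trem1 was at 0 and 0.0394 CPM in NOD.B10 and 3.10 and 2.29 CPM in BL/10 (log2 fold change −6.64, SE 0.927, adjusted p = 1.83e-04), and Treml4 had 0 reads in both NOD.B10 libraries and 0.919 and 1.03 CPM in BL/10 (adjusted p = 0.00415). B430306N03Rik was at 1.14 and 0.985 CPM in NOD.B10 and 12.8 and 11.6 CPM in BL/10 (log2 fold change −3.53, SE 0.305, adjusted p = 3.63e-06). Treml2, 132 kb away, was far more abundant, at 189 and 184 CPM in NOD.B10 and 258 and 279 CPM in BL/10. It was called lower as well (log2 fold change −0.53, SE 0.106, edgeR adjusted p = 0.00406). Of 6 macrophage and monocyte markers, 5 were tested and 3 were called lower. Their summed level was 43.7 and 31.4 CPM in NOD.B10 and 117 and 116 CPM in BL/10. Most of the BL/10 sum was Apoe, at 16.7 and 17.7 CPM in NOD.B10 and 81.7 and 79.7 CPM in BL/10. The part of such cells in the levels of the Trem genes was not tested.

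**Figure D4:**
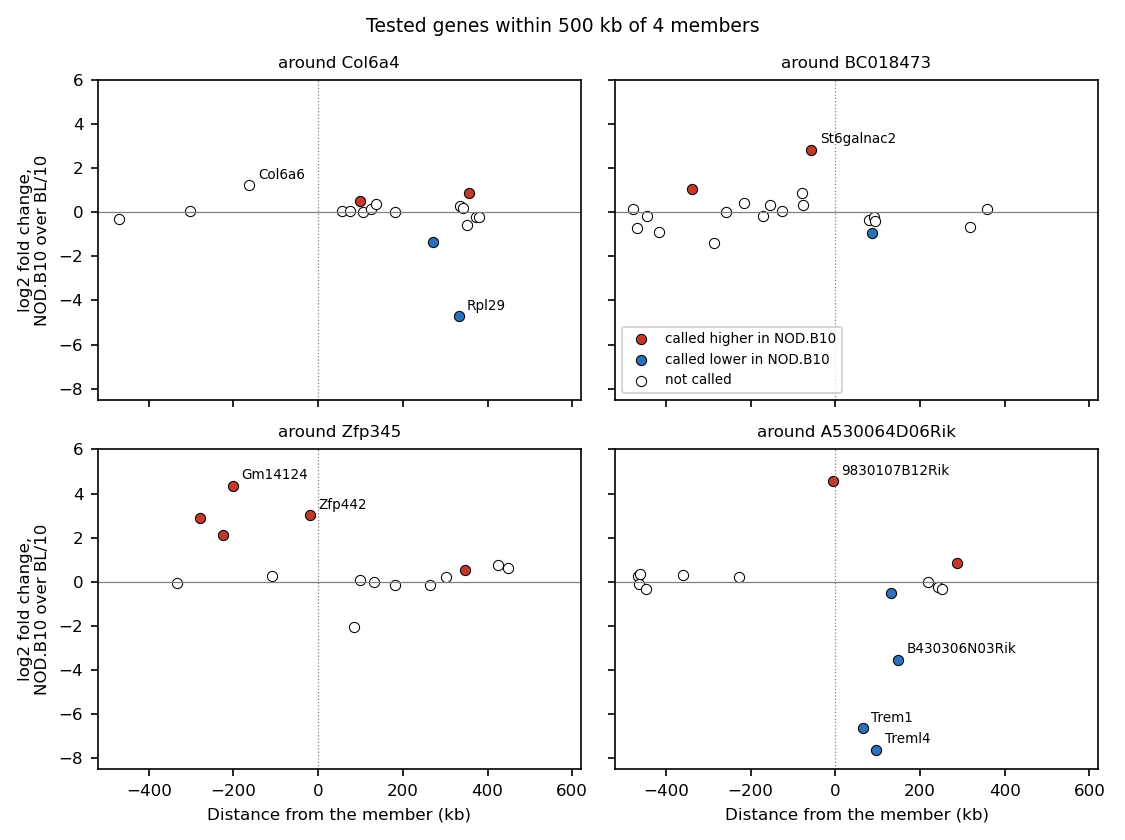
Log2 fold change (NOD.B10 over BL/10) of every other tested gene within 500 kb of 4 members, against its distance from the member in kb, negative towards lower coordinates; red points were called higher, blue points lower, and white points not called. Around Zfp345 5 genes were called higher and 0 lower, with Cst7 at −2.04 just short of the call, around A530064D06Rik both directions occur, and most genes around Col6a4 and BC018473 lie near 0. The value of Treml4, with 0 reads in NOD.B10, depends on the prior count of the fit.

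Genes that keep other genes silent were measured as a group. Of 27 tested genes for DNA methyltransferases, histone methyltransferases, polycomb proteins and their partners, 1 was called higher and 3 lower, 14.8% against 15.2% of all tested genes, with a median log2 fold change of −0.02. Suv39h2, a histone H3 methyltransferase, was at 16.4 and 10.9 CPM in NOD.B10 and 6.43 and 7.23 CPM in BL/10 (log2 fold change 0.99, SE 0.252, adjusted p = 0.017), and without NOD.B10 replicate 1 its adjusted p was 0.184. Hdac1, a histone deacetylase, was at 54.8 and 60.4 CPM in NOD.B10 and 74.9 and 87.2 CPM in BL/10 and was called lower (log2 fold change −0.50, SE 0.128, adjusted p = 0.0172). The call ended without BL/10 replicate 2 (0.0549) or NOD.B10 replicate 1 (0.0749). Ezh2, the methyltransferase of polycomb complex PRC2, was at 13.5 and 9.50 CPM in NOD.B10 and 18.2 and 21.99 CPM in BL/10 and was called lower (log2 fold change −0.82, SE 0.217, adjusted p = 0.0209). Without BL/10 replicate 2 its adjusted p was 0.0647, and without NOD.B10 replicate 2 it was 0.112. The maintenance DNA methyltransferase Dnmt1 was at 203 and 206 CPM in NOD.B10 and 185 and 202 CPM in BL/10 and was not called (adjusted p = 0.75).

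Among markers of other cell types, calls were in the opposite direction to the members, except for Pdgfrb, which lies near the member Arsi. All 9 T cell markers were called lower in NOD.B10, with a summed level of 9.21 and 4.81 CPM in NOD.B10 and 304 and 358 CPM in BL/10. So were 3 of 3 tested natural killer markers, 2 of 4 dendritic, 2 of 2 neutrophil, 3 of 3 mast cell, 2 of 2 erythroid, 2 of 6 salivary gland and 1 of 4 plasma cell markers, and in these lists 0 were called higher. The mast cell markers Kit, Cpa3 and Mcpt4 were at 0 in both NOD.B10 libraries, against 3.47 and 4.17 CPM summed in BL/10. Summed levels in NOD.B10 and BL/10 were 2.54 and 3.35 against 9.09 and 13.7 CPM for natural killer cells, 9.73 and 4.30 against 186 and 289 CPM for erythroid cells, and 12.5 and 19.9 against 93.7 and 66.4 CPM for salivary gland. They were 5.02 and 4.14 against 7.73 and 14.8 CPM for dendritic cells and 0 and 0.0788 against 2.14 and 4.05 CPM for neutrophils. For plasma cells they were 517 and 470 against 523 and 439 CPM. Most of that was Irf4, at 388 and 336 against 354 and 322 CPM, and Xbp1, at 119 and 124 against 134 and 101 CPM. The other plasma cell genes were Sdc1, not called, at 5.33 and 5.32 against 19.9 and 7.84 CPM, and Prdm1. Prdm1, called lower, was at 4.66 and 4.57 against 14.8 and 7.19 CPM. Most of the BL/10 sum for salivary gland was Amy1, not called, at 2.38 and 14.1 against 69.8 and 46.0 CPM. With 1 library left out, the calls of Prf1, Ncr1, Csf1r, S100a8, Cpa3, Alas2, Pip and Prdm1 were lost in at least 1 case, with edgeR adjusted p of 0.0512 to 0.329. The part of these cells in the members' levels was not tested.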

How the data were processed

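RNA was sequenced from sorted B cells of 2 NOD.B10 and 2 BL/10 samples. The authors deposited read counts per gene symbol, not normalised, with a gene length in bases (other), for all 4 libraries. Per the submitters' processing notes the tools were HISAT2 2.1.0, SAMtools 1.3, Subread 1.6.5 and featureCounts, with build mm10. Annotation, strand setting and handling of multiply aligned reads are not given in the sources used here, so overlapping and antisense genes are uncertain too. Totals were 19328803 and 25375678 reads in NOD.B10 and 29372751 and 26150794 in BL/10.

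CPM and RPKM were computed from the column totals and the deposited lengths. The members, lists and tests were chosen with earlier results of these data known. Genes were tested with edgeR 4.0.16 in R 4.3.3 (TMM, filterByExpr at its default minimum count, 10, and total, 15, robust glmQLFit, glmQLFTest, two-sided, Benjamini-Hochberg over 13075 genes, called at adjusted p under 0.05), a procedure tested on simulated data. SE is the unshrunken fold change over the square root of F. Alternatives used DESeq2 1.42.0 and limma 3.58.1. Symbols were matched to RefSeq GRCm38.p6, the assembly of mm10, 21570 directly and 1663 by synonym, while 185 did not match. The 21 members matched, 17 directly and 4 by synonym. Sequences are from RefSeq, and intervals and limits from 3 reads cover counting error only. Members named were the 20 most abundant in NOD.B10, and Gm14322 as one of the 5 lowest inside the limits. Other genes were named as the nearest tested genes on either side of the 10 highest members, the 5 highest and 5 lowest called neighbours, the edges of the limits, or up to 3 called genes of a list. For marker lists of other cells, sums are given, and 1 B cell marker is not reported here. All collagen VI chains and copines were named. Cnr2, Rpph1, Rprl3, Dnmt1, Col1a1, Col1a2, Cdh5, Cxcl13, Pdgfra, Treml2, Sdc1, Irf4, Xbp1 and Amy1 were chosen outside these rules, after their values were seen.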

Additional observations from a re-analysis of the deposited data

How the results depend on the processing

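The number of members depended on the limits: 10 with an upper limit of 0.25 CPM in BL/10, 53 with 1 CPM, 59 with a lower limit of 1 CPM in NOD.B10 and 12 with 4 CPM. The opposite rule gave 56 and 158 genes with its upper limit at 0.25 and 1 CPM, and 209 and 48 with its lower limit at 1 and 4 CPM. With 1 library left out, 31 to 35 genes passed the member rule and 120 to 148 the opposite rule, because fewer libraries had to meet the limits, and all 21 members passed in each case. Members in runs numbered 4 with the upper limit of 0.25 CPM, 19 with the lower limit of 1 CPM, 8 to 11 with 1 library left out, and 2 without members under 80% of their own sequence, a setting chosen after seeing the data. TMM scaling left 21 members and totals without Rn45s 22. Called neighbours numbered 29 within 250 kb and 40 to 48 with 1 library left out, called genes 1758 to 2199 and called list genes 28 to 33. Of the alternatives for named genes and for the members' mean levels, 647 were unchanged, 45 lost a call and 7 gained one. The remaining 1, a mean (A530064D06Rik, 2.70 CPM with totals without Rn45s), moved by more than its SD. Unchanged means the same call, or a mean within its SD, and a gene without a call could change sign. No call reversed direction. The replicate numbers showed no pairing (r = −0.0141 over 13075 genes), and with a replicate block 1802 genes, 41 neighbours and 30 list genes were called, while Zfp534 (adjusted p = 0.0603), Cnr2 (0.0554), Gm15645 and Gm15941 (0.0686 each), Pip (0.0654) and Alas2 (0.200) were not. Counts under about 20 reads, as in BL/10, limit every ratio.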
